A study of Dendrobium nobile with 12 samples.

Results

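Root, petal and labellum of the orchid Dendrobium nobile were set against stem, leaf and bud, and gene models whose 6 libraries of one set all lay above the 6 of the other were described. There were 1391 such models (7.27% of those tested), called separated models here, among 19123 tested and 31672 in all: 618 were higher and 773 were lower in root, petal and labellum. The values compared were CPM, counts scaled to a common library total, after TMM scaling, a correction for differences in composition between libraries. Each set mixes seedling ages. By the labels, 1-year seedlings gave the root, stem and leaf libraries and 2-year seedlings gave petal, labellum and bud, with 2 libraries per tissue. All 12 libraries share a genotype label, which begins with chichai, and came from seedlings grown in a greenhouse medium, with no other treatment named. The series title belongs to a genome study of D. nobile and its picrotoxane-type sesquiterpenoid alkaloids; the design text names D. officinale, while each library has D. nobile as its organism.

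An orchid root takes up water and minerals and, in epiphytic species, carries a spongy outer layer, the velamen. The labellum is the modified petal that faces the pollinator, and petal and labellum are open display organs. Stem and leaf are the green organs that fix carbon, and a bud holds organs that are still forming. Whether bud means flower or shoot bud is not labelled. Identifiers come without gene names or products in the files, so no function is stated for any model and the labelled tissues could not be checked against marker genes.

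Library totals ran from 5289212 counts in root replicate 2 to 32040196 in leaf replicate 1, and root replicate 1 held 14165136. Nothing in the labels ties the 2 libraries of a tissue to different plants. The p-values therefore reflect only how these libraries vary, and that variation may be technical. These are bulk tissues, in which fewer cells of a type and less RNA per cell cannot be told apart.

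The separated models were part of a broader difference between the sets. With the 3 tissues of a set weighted equally, 2151 tested models (11.2%) were called higher in root, petal and labellum and 3545 (18.5%) were called lower, 29.8% in either direction. A call was an adjusted p under 0.05 and a change of at least 2-fold, by edgeR's quasi-likelihood test with Benjamini-Hochberg adjustment. Of the 618 separated models on the higher side (3.23% of those tested), 461 were called, which is 74.6% of them and 21.4% of all higher calls. Of the 773 on the lower side (4.04% of those tested), 713 were called, or 92.2% of them and 20.1% of all lower calls. Separation and calls use the same values, so these shares describe the models and support nothing.

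The error behind those calls is the variation within tissues. When the 2 libraries of each tissue were summed and the 6 tissues were used as the replicates, 3 against 3, edgeR called 0 models in either direction. The lowest adjusted p was 0.417, and 2189 models (11.4%) had an unadjusted p under 0.05. The differences therefore hold for these libraries and were not shown for the 2 sets of tissues in general.

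The models lower in root, petal and labellum had larger fitted changes than the higher ones. Their median log2 fold change was -2.60, against 1.69 for the higher separated models and -0.11 for all tested models. Changes of at least 8-fold were found in 317 (41.0%) of the lower models and in 125 (20.2%) of the higher ones. All 6 libraries of root, petal and labellum were under 1 FPKM (counts per kilobase of coding length, scaled to the library total) for 184 of the lower models, and 56 of those were at 1 FPKM or more in every stem, leaf and bud library. For 15 lower models the 6 libraries of root, petal and labellum held 0 counts. On the higher side, 20 models were under 1 FPKM in every stem, leaf and bud library. Where a tissue is near 0, a fitted fold depends on the prior count, a small number added to the counts. How far this enters the larger changes of the lower models was not tested.

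**Figure D1:**
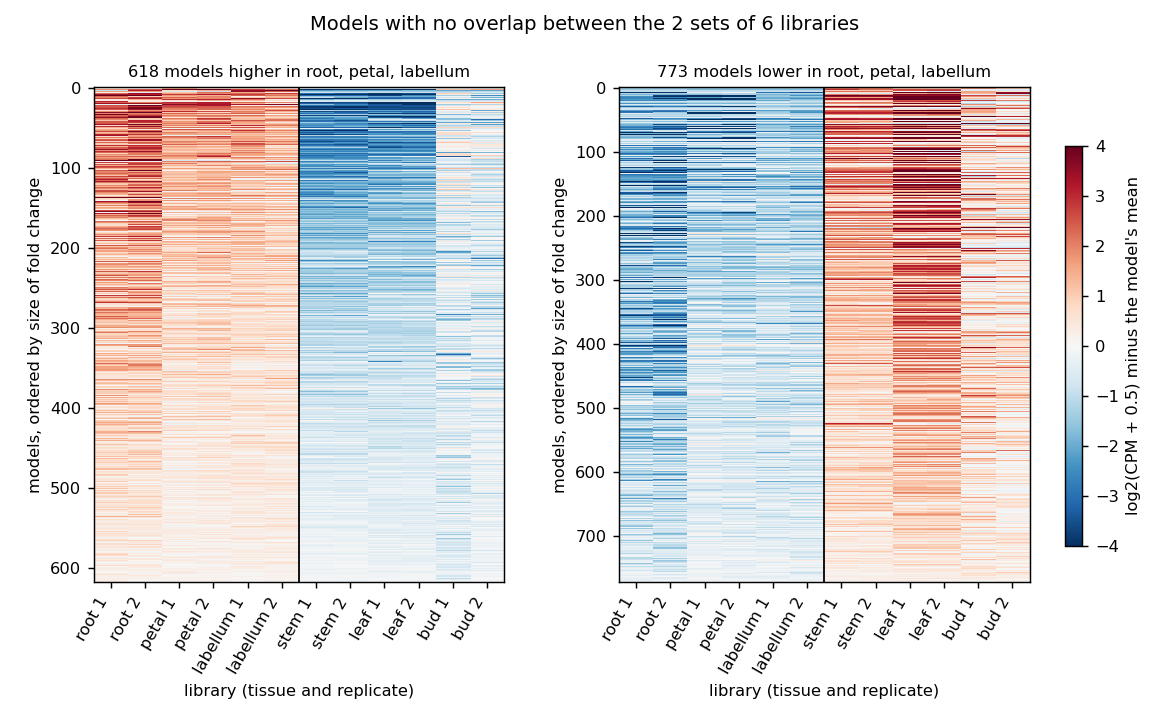
Level of each separated model (rows) in each library (columns), as log2(CPM + 0.5) minus the mean of that model over the 12 libraries; the black line parts root, petal and labellum from stem, leaf and bud. Root is the deepest red among the 618 higher models and leaf among the 773 lower ones, and the bud libraries are the palest of their set in both panels.

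The gap between the sets was narrow for many models. The gap is the lowest CPM of the higher set divided by the highest CPM of the lower set. Its median was 1.25 for the higher models and 1.37 for the lower ones, with interquartile ranges of 1.1 to 1.58 and 1.13 to 1.90. A gap under 1.1 was found for 154 higher models (24.9%) and 160 lower models (20.7%). A gap of at least 2 was found for 68 and 178. The models nearest the limit had gaps of 1.0002 and 1.0005 inside it and 0.99916 and 0.99997 outside it, and 260 and 226 unseparated models lay between 0.9 and 1. Leaving out any single library sets 6 libraries against 5. The lower separated models numbered 1175 or 1190 without bud replicate 1 or 2, and 810 to 889 without a library of another tissue.

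Scaling moved this set. With library totals in place of TMM, or equally with the deposited FPKM, 473 models were separated on the higher side and 961 on the lower side, and the median log2 fold change over the tested models as a whole went from -0.11 to -0.26. By FPKM, 435 of the 618 higher models (70.4%) and 734 of the 773 lower models (95.0%) were still separated.

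Median levels followed one order on the higher side, with root at the top and bud nearest the other set. The 618 higher models had a median of 84.2 FPKM in root, 45.8 in petal and 49.7 in labellum. In bud the median was 25.1, in stem 19.6 and in leaf 17.8 FPKM. The 2 libraries of a tissue gave close medians, 77.7 and 83.0 in root and 23.3 and 27.5 in bud. For all tested models the medians were between 8.14 FPKM in petal and 13.2 in stem, so the higher models were above the general level in all 6 tissues.

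The lower models had medians above those of all tested models in stem, leaf and bud and under them in the other set. In leaf their median was 20.4 FPKM, against 11.4 for all tested models, in stem 17.6 against 13.2, and in bud 12.5 against 10.2. It was 3.35 in labellum, 3.04 in petal and 2.11 in root. Root was the lowest tissue for 503 of these 773 models (65.1%) and leaf the highest for 449 (58.1%). Among all tested models, root was the lowest of root, petal and labellum for 49.3% and leaf the highest of stem, leaf and bud for 29.4%.

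**Figure D2:**
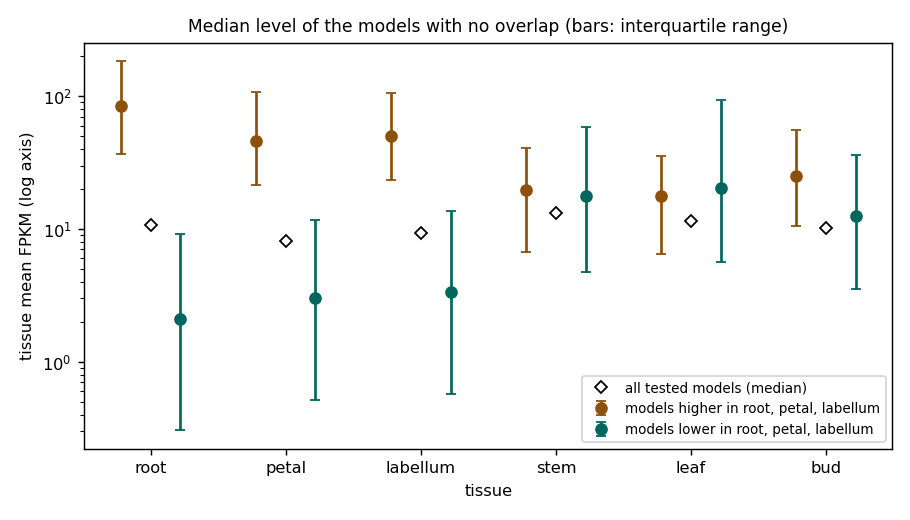
Median over separated models of the tissue mean FPKM (log axis) for the 618 models higher and the 773 models lower in root, petal and labellum; bars span the interquartile range of the models and open diamonds mark the median of all tested models. The higher models lie above the diamonds in each tissue, and the lower models fall below them in root, petal and labellum.

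Bud was the tissue that closed the gap most often. Among the higher models, the highest library of stem, leaf and bud was a bud library for 451 of 618 (73.0%). Among the lower models, the lowest library of that set was a bud library for 507 of 773 (65.6%). By tissue means, bud was the highest of these 3 tissues for 63.8% of the higher models, against 43.6% of all tested models. It was the lowest of them for 56.1% of the lower models, against 40.8%. Bud was thus often the extreme of its set among all tested models too, and the selection bears on these shares. The pairs of petal or labellum with bud had the fewest calls, among separated models and among all tested models alike. Separation fixes the direction in each pair, so the shares of separated models beside their backgrounds are descriptions. Of the higher models, 305 (49.4%) were called between petal and bud and 301 (48.7%) between labellum and bud, against backgrounds of 5.72% and 7.79%. Between root and leaf 489 (79.1%) were called, against 17.7%. Of the lower models, 408 (52.8%) were called between petal and bud and 664 (85.9%) between root and leaf, against 9.51% and 22.7%. Among the remaining pairs, the lower models called ranged from 442 (57.2%) between labellum and bud, against 11.5%, to 636 (82.3%) between root and stem, against 21.5%. Between root and bud 604 (78.1%) were called, against 29.8%. Petal gave 530 (68.6%) against stem and 608 (78.7%) against leaf, with backgrounds of 23.8% and 24.2%. Labellum gave 541 (70%) against stem and 610 (78.9%) against leaf, with backgrounds of 19.8% and 20.9%.

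A stricter group passed in each of the 9 pairs that join a tissue of one set to a tissue of the other. It held 148 of the higher models, 23.9% of them, and 200 of the lower models, 25.9%. These same models were 0.774% of tested models in the higher direction and 1.05% in the lower. No model outside the separated ones passed in all 9 pairs. Calls in all 9 pairs all but require separation, so that outcome was close to fixed in advance. Without petal replicate 2 the lower group was 128. By limma-voom with a variance weight for each tissue the higher group was 81.

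In the higher direction, evm.model.Chr12.544-gene (chromosome 12, coding length 411 bp) had the largest fitted fold change among called models whose average log2 CPM was 3 or more and that were separated by both CPM and FPKM. It was at 395 and 112 FPKM in the root libraries, 11.1 and 3.95 in labellum, and 1.81 and 0.772 in petal. It was at 0.178 and 0.240 FPKM in bud, at 0 and 0.0776 in leaf, and at 0 in both stem libraries. The sets did not overlap, yet nearly all of the signal was in root. The 6 libraries of stem, leaf and bud held 6 counts of this model in all, so the ratio of mean CPM stands in place of the fitted fold. That ratio was 971, and it was 446 without root replicate 1 and 1497 without root replicate 2. Its adjusted p was 1.79e-05 by edgeR's quasi-likelihood test, and 8 of the 9 tissue pairs were called.

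Among the other higher models that met these limits, the one with the widest gap was evm.model.Chr16.1580-gene (chromosome 16, 1170 bp). It was expressed in each tissue of the higher set. It was at 205 and 338 FPKM in root, 57.1 and 46.0 in labellum, and 31.3 and 25.9 in petal. In stem it was at 0.923 and 1.04 FPKM, in leaf at 0.480 and 1.55, and in bud at 3.6 and 1.66. Its lowest high library stood 7.61 times above its highest low one. The log2 fold change was 5.87 ± 0.33 (SE) with an adjusted p of 4.10e-07 by edgeR's quasi-likelihood test, and all 9 tissue pairs were called.

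In the lower direction, evm.model.Chr13.308-gene (chromosome 13, 1548 bp) was chiefly a leaf transcript. It was at 284 FPKM in each leaf library, 6.14 and 6.04 in stem, and 0.923 and 1.49 in bud. It was at 0.137 and 0 FPKM in root, at 0.134 and 0.0856 in labellum, and at 0 in both petal libraries. Root, petal and labellum held 13 counts of it in all. The ratio of mean CPM was 1560 in favour of stem, leaf and bud, or 2393 without root replicate 1 and 1157.5 without root replicate 2. Its adjusted p was 4.98e-08 by edgeR's quasi-likelihood test, with all 9 tissue pairs called.

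Among the other called lower models that met the same limits, the one with the widest gap, evm.model.Chr07.823-gene (chromosome 7, 1266 bp), was abundant in all 3 tissues of stem, leaf and bud. It was at 459 and 456 FPKM in stem, 271 and 276 in leaf, and 137 and 109 in bud. In root it was at 10.4 and 1.49 FPKM, in labellum at 6.79 and 3.72, and in petal at 0.102 and 0. Its lowest high library was 10.96 times its highest low one, so even the bud libraries stood well clear of root. The fitted log2 fold change was -7.50 ± 0.46 (SE) with an adjusted p of 8.06e-07 by edgeR's quasi-likelihood test, and all 9 pairs were called. The petal libraries held 4 and 0 counts of this model, so the fitted fold leans on a tissue near 0. The ratio of mean CPM was smaller, 70.1 in favour of stem, leaf and bud. With single libraries left out this ratio ran from 51.2 without root replicate 2 to 111 without root replicate 1. The fitted log2 fold change ran from -7.19 without petal replicate 2 to -8.88 without petal replicate 1. It was -7.27 without root replicate 2 and -8.21 without root replicate 1.

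For each of these 4 models the adjusted p was 0.417 with tissues as the replicates, by edgeR's quasi-likelihood test on the summed counts.

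**Figure D3:**
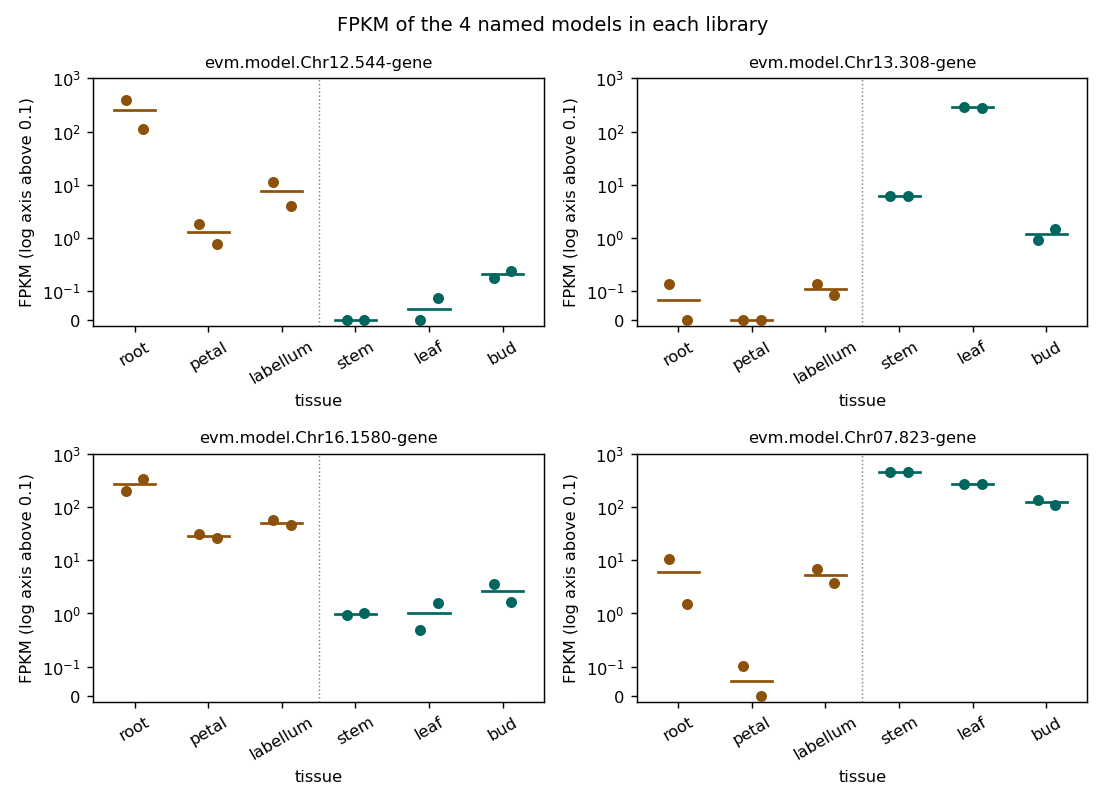
FPKM of the 4 named models in each library (points) with the tissue mean (line, n = 2), on an axis that is linear up to 0.1 and logarithmic above it; brown marks root, petal and labellum and green marks stem, leaf and bud. The models on the left are higher in root, petal and labellum, with root at the top, and those on the right are higher in stem, leaf and bud.

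Because each set holds both seedling ages, the comparison was also made within each age: root against the mean of stem and leaf at 1 year, and the mean of petal and labellum against bud at 2 years. Over all tested models, 3259 (17%) were called higher and 4331 (22.6%) lower within 1-year seedlings, 39.7% in either direction. Within 2-year seedlings 1183 (6.19%) were called higher and 2404 (12.6%) lower. Of the higher separated models, 491 (79.4%) were called within 1 year and 326 (52.8%) within 2 years, and 298 (48.2%) within both. Of the lower ones, 681 (88.1%) were called within 1 year, 510 (66.0%) within 2 years and 455 (58.9%) within both. The separation itself fixes the direction in both ages. Over all tested models, 515 (2.69%) were called higher and 935 (4.89%) lower within both ages, or 293 and 517 by limma-voom with a weight per tissue. Opposite directions were called for 304 models (1.59%) that were higher within 1 year and for 212 (1.11%) that were lower within 1 year. By limma-voom with a weight per tissue these were 138 and 104, and limma on log2(FPKM + 1) gave 177 of the former. The latter numbered 364 without bud replicate 1 and 461 without bud replicate 2.

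The difference was larger within 1-year seedlings for most separated models. The median log2 fold change of the higher models was 2.13 within 1 year and 1.06 within 2 years, and that of the lower models was -3.38 and -1.59. For all tested models these medians were -0.16 and -0.03. A test of the difference between the 2 within-age contrasts called 287 higher models (46.4%) with the larger change at 1 year and 7 with the larger change at 2 years. For the lower models these numbers were 360 (46.6%) and 23. These are the libraries that chose the models, so the counts describe them. Over all tested models, this test called 15.1% in the direction of a higher value at 1 year and 17.7% in the other. Age, organ and library depth change together here, since the shallow root libraries enter the 1-year contrast alone, and they cannot be told apart.

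**Figure D4:**
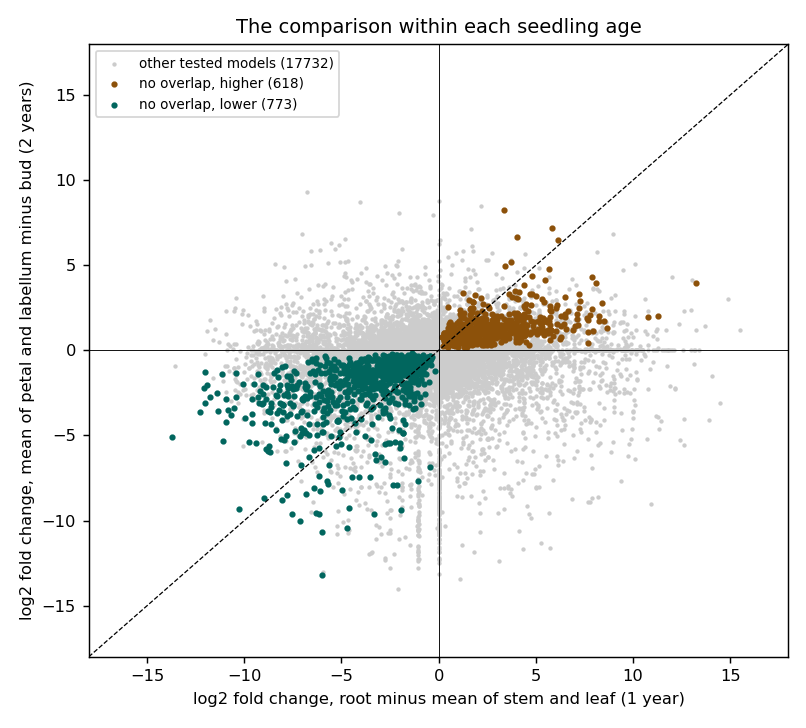
Log2 fold change of each tested model within 1-year seedlings (root minus the mean of stem and leaf, horizontal axis) and within 2-year seedlings (mean of petal and labellum minus bud, vertical axis), with separated models in colour and the dashed line marking equal change. Most separated models lie on the 1-year side of the line, with medians of 2.13 against 1.06 for the higher models and -3.38 against -1.59 for the lower ones.

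Within a set the separated models still varied. These contrasts use the libraries that chose the models, and a model whose tissues spread widely within a set is less likely to be separated, so the shares beside all tested models are descriptions and nothing is read from the difference. Between root and the mean of petal and labellum, 153 of the higher models (24.8%) were called higher in root and 14 (2.27%) lower, against 21.7% and 25.1% of tested models. Of the lower models, 37 (4.79%) were called higher in root and 220 (28.5%) lower. Together, 424 of the 1391 separated models (30.5%) were called in this contrast, against 46.8% of those tested.

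The same holds for bud and its own set. Against the mean of stem and leaf, 194 of the higher models (31.4%) were called higher in bud and 8 (1.29%) lower, with backgrounds of 26.2% and 22%. Of the lower models, 59 (7.63%) were called higher in bud and 264 (34.2%) lower. Together 525 separated models (37.7%) were called in this contrast, against 48.2% of those tested. The median log2 difference of bud from stem and leaf was 0.51 for the higher models and -0.64 for the lower ones.

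Most of the calls between leaf and stem among the lower models were higher in leaf. Of those 773 models, 232 (30%) were called higher in leaf than in stem and 33 (4.27%) lower, against 8.27% and 7.01% of tested models. The 2 directions together gave 265 models, and 149 to 174 when any one of the stem or leaf libraries was left out. Among the higher models, 46 (7.44%) were called higher in leaf and 29 (4.69%) in stem. Between petal and labellum, 17 of the higher models (2.75%) and 60 of the lower ones (7.76%) were called in either direction. The share of all tested models was 3.76%, and here too nothing is read from the difference. Over all tested models, 1.67% were called higher in petal and 2.09% higher in labellum. In none of these 4 contrasts was a call made for 292 higher models (47.2%) and 261 lower ones (33.8%), against 30.2% of all tested models, a share that the selection also bears on.

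The separated models made up a sizeable part of the counts. The 618 higher models took 15% ± 1.58 of root counts (mean ± SD, n = 2). In petal they took 8.23% ± 0.356 and in labellum 8.22% ± 0.683. They took 4.04% ± 0.295 in bud, 3.32% in stem and 3.00% in leaf. The 773 lower models took 16.9% of leaf counts, 7.68% ± 0.0178 of stem counts and 2.72% ± 0.00819 of bud counts (n = 2 each). They were under 1% in root, petal and labellum, from 0.693% in root replicate 2 to 0.995% in labellum replicate 1. In leaf the 10 most abundant of them held 36.9% of their counts, and in root the 10 most abundant higher models held 17.9%.

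**Figure D5:**
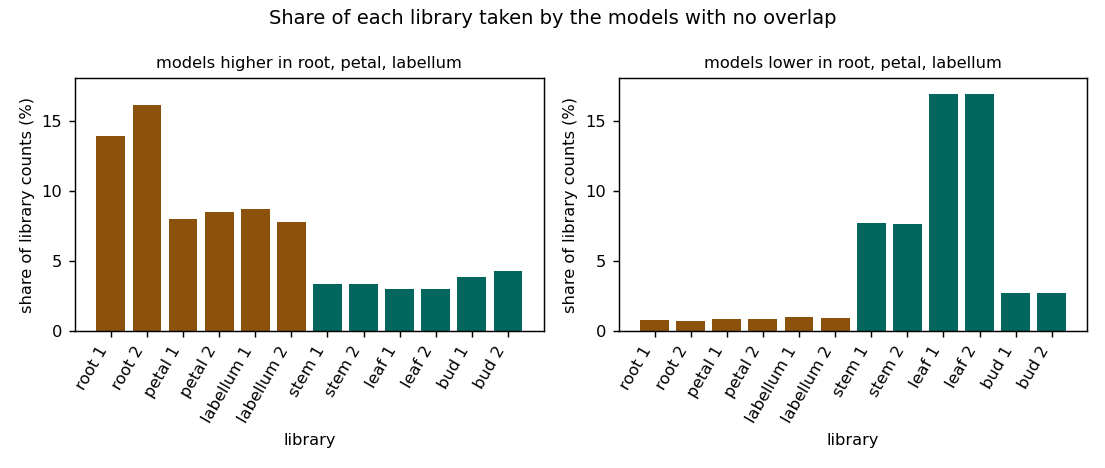
Share of the total count of each library (bars, in percent) taken by the 618 models higher and the 773 models lower in root, petal and labellum. The root libraries stand at 13.9% and 16.1% in the left panel, and both leaf libraries at 16.9% in the right panel, with stem and bud of the same set well below leaf.

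Higher models were longer and more abundant than the average tested model. Their median coding length was 1401 bp, against 1092 bp for the lower models and 1134 bp for all tested models, and 9.71% of them were under 600 bp, against 18.8% and 19.6%. Their median average log2 CPM was 5.92, against 3.71 for the lower models and 4.04 for all tested models. The part of abundance and counting precision in which models were separated was not tested.

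Separated models were found on all 19 chromosomes. Their share of tested models ran from 5.90% on chromosome 10 to 8.62% on chromosome 5. By the numbers in the identifiers, 41 higher models (6.63%) were next to another higher one, while 4.62% of all tested models had such a neighbour. For the lower models these shares were 7.89% (61 models) and 5.76%. Neighbours of near-equal coding length, within 30 bp, made up 2 of the 21 such pairs on the higher side (9.52%) and 3 of the 31 on the lower side (9.68%). The share among neighbouring tested models in general was not computed, and length alone does not show that neighbours are copies. The counting of reads shared between near-identical copies is uncertain.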

How the data were processed

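For 12 libraries the authors deposited raw read counts of each gene model, in whole numbers, and FPKM values that equal each count divided by one coding length per model and by the library total. Per the labels' protocols, RNA came from a Qiagen column kit and libraries from a SMARTER mRNA-seq kit. How reads were aligned and counted, and whether strand was used, is not given in the sources used here. Mouse builds (GRCm38, mm10) stand in the submitters' processing notes, while identifiers are numbered along 19 chromosomes and scaffolds. No reference genome was used.

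Counts were tested with edgeR 4.0.16 (R 4.3.3), after filterByExpr (19123 models, 60.4%) and TMM, in one quasi-likelihood fit with a mean per tissue and 6 residual degrees of freedom. Each standard error is a log2 fold change over the square root of its F statistic. The script was tested on simulated data. DESeq2 1.42.0 and limma 3.58.1 were alternatives. Ratios of mean CPM weight tissues equally; bounds use a floor of 3 counts over a group, which covers counting error only.

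Named models were, per direction, the called and separated model (by CPM and FPKM, average log2 CPM of at least 3) with the largest fold, and the one with the widest gap among the rest; for the difference between ages, the largest difference in each pattern. Gene lists by product were not tested, since no identifier has a name. The comparison, its members and its rules were chosen with earlier results of these data known, and the counts over all 9 tissue pairs, of larger changes at 1 year and between stem and leaf were added after seeing the data. No sample was left out.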

Additional observations from a re-analysis of the deposited data

Results flagged for a closer look

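Some models were called in opposite directions within the ages. There were 304 models called higher in root than in stem and leaf but lower in petal and labellum than in bud (1.59% of those tested), and 212 with the reverse pattern (1.11%). The difference between the within-age contrasts was also called for each of them. Calls in opposite directions all but fix that outcome, so it adds no support. By limma-voom with a weight per tissue these numbers were 138 and 104, and by limma on log2(FPKM + 1) the first was 177. The second number was 364 without bud replicate 1 and 461 without bud replicate 2.

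In the first pattern evm.model.Chr11.1674-gene (chromosome 11) was at 53.3 and 119 FPKM in root, 0.0228 and 0 in stem, and 0.694 and 1.46 in leaf, and its mean CPM in root was 149 times that of stem and leaf, or 93.1 times without root replicate 2 and 230 times without leaf replicate 2. It was at 0.311 and 0.944 FPKM in bud and at 0 in the 4 petal and labellum libraries, so bud was at least 33.7-fold higher, or at least 18.2-fold without bud replicate 2. The fitted difference of log2 fold changes was 17.07, which depends on the prior count where a tissue is at 0 (adjusted p 2.58e-05, edgeR quasi-likelihood test). In the reverse pattern evm.model.Chr14.473-gene (chromosome 14) was at 0 in both root libraries, at 7.59 and 6.59 FPKM in stem and at 8.57 and 8.45 in leaf, at least 99.2-fold above root. That bound was 27.3 without root replicate 1, with the floor over the library kept. It was at 6.50 and 6.95 FPKM in petal, 9.53 and 13.7 in labellum, and 3.31 and 4.84 in bud. Its fitted difference was -12.77 (adjusted p 5.91e-06, same test).

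For evm.model.Chr12.544-gene, which was higher within both ages, the fitted difference was 9.30 (adjusted p 0.00998, edgeR quasi-likelihood test). Stem and leaf held 1 count of this model and root held 2545, so the fitted difference depends on the prior count and is no bound. The ratio of summed counts per scaled library total, root over stem and leaf, was 15700, with an exact 95% binomial interval of 2810 to 619000 that covers counting error only. For evm.model.Chr16.1580-gene the fitted difference was 4.10 (adjusted p 0.000406, edgeR quasi-likelihood test). Its log2 fold change was 8.08 ± 0.45 (SE) within 1 year and 3.98 ± 0.49 within 2 years. Tissues had 2 libraries each, too few to look for single outlying libraries.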

How the results depend on the processing

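With tissues as replicates the higher and lower calls went from 2151 and 3545 to 0 and 0, and the named models lost their calls. A 2-fold margin left 68 higher and 178 lower separated models. Limma-voom with a weight per tissue gave 293 and 517 models called higher and lower within both ages (515 and 935 in edgeR), 138 and 104 with opposite directions (304 and 212), and 81 in all 9 pairs on the higher side (148); limma on log2(FPKM + 1) gave 177 in place of 304. The causes were not tested. Leaving out single libraries, with 6 facing 5 each time, gave 810 to 1190 lower separated models. The highest numbers were 1190 without bud replicate 2 and 1175 without bud replicate 1. Such omissions gave 631 to 922 higher separated models and 128 to 230 lower models in all 9 pairs. They gave 169 to 461 models lower within 1 year and higher within 2 years, and 149 to 307 lower models called between stem and leaf.

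The labels number libraries 1 and 2 in each tissue. Differences between the 2 numbers correlated between tissues with r from -0.279 to 0.105 over 15 pairs of tissues, so the numbers are not taken to pair libraries. With a replicate block, calls numbered 2117 higher and 3436 lower. The remaining counts and alternatives in this comparison stayed within 1.5 times, among them DESeq2 (2362 and 3637 calls), no filter on low counts and a removed trend with coding length. With 5289212 counts, root replicate 2 had the lowest depth and limits what is detectable at low levels.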
